A study of Mus musculus with 13 samples.

Results

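The 10 genes described here encode cytokines of the interleukin-1 (IL-1) family, their natural antagonists and the inflammasome parts that mature them: Il1a, Il1b, Il1rn, Il18, Il18bp, Nlrp3, Pycard, Casp1, Casp4 and Gsdmd. They were chosen by symbol, and each symbol was represented by the RefSeq transcript with its highest total count, which gave 10 of the 24445 genes in the table. RNA was sequenced from mouse bone marrow-derived macrophages (BMDMs), cells grown from female bone marrow in a medium conditioned by L929 cells. Control cells carried the floxed Acly allele without Cre (labelled WT). In AclyM-KO cells Acly was deleted through a Cre expressed from the Lyz2 (LysM) promoter of myeloid cells. Acly encodes the enzyme that makes cytosolic acetyl-CoA from citrate, and its RNA was lowered but not absent in AclyM-KO cells, as given below. Both genotypes were stimulated with lipopolysaccharide (LPS), a bacterial cell wall component, at 100 ng/mL for 3 h or 24 h. There were 3 control and 3 AclyM-KO libraries at 3 h, and 4 control and 3 AclyM-KO libraries at 24 h. Unstimulated cells were not analysed here, so each comparison is between stimulated groups.

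IL-1 alpha and IL-1 beta bind the same receptor and start inflammatory signalling through MyD88, and the IL-1 receptor antagonist, encoded by Il1rn, occupies that receptor without signalling. IL-18 acts through a related receptor and is held in solution by the IL-18 binding protein, encoded by Il18bp. IL-1 beta and IL-18 are made as inactive precursors. In the canonical inflammasome NLRP3 senses cell damage, the adaptor ASC (encoded by Pycard) links it to caspase-1, and caspase-1 cleaves both precursors and gasdermin D, whose fragment forms pores in the membrane. Caspase-11, the product of mouse Casp4, binds LPS inside the cell and also cleaves gasdermin D. LPS signalling through TLR4 is known to induce Il1b and Nlrp3 transcription in macrophages, the step called priming. The data are RNA levels, so cleavage, release and protein amounts were not measured.

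The read counts per library ranged from 21274102 to 59577343 in 12 libraries, and control 24 h replicate 1 held only 34467 counts. At that depth a count of 1 in control 24 h replicate 1 stood for 22.4 CPM (counts scaled to a common library size, the unit of all levels here), and the 10 genes had between 1 count (Pycard) and 12 counts (Il1rn) there. This library was left out of the levels and of the main fit, and values that changed with it are given below. Acly itself was present at 106 ± 1.20 CPM (mean ± SD, n = 3) in control and 41.8 ± 4.24 CPM (n = 3) in AclyM-KO cells at 3 h, and at 110 ± 2.78 (n = 3) and 29.9 ± 0.758 CPM (n = 3) at 24 h. The Acly fold change was -1.34 ± 0.06 (log2 ± SE) at 3 h (edgeR quasi-likelihood test, Benjamini-Hochberg adjusted p = 6.40e-16) and -1.88 ± 0.06 at 24 h (adjusted p = 4.81e-20), and the labels matched the deletion in each of the 12 libraries. The 8 macrophage markers on a fixed list were all detected. Their summed level was lower in AclyM-KO cells, at 6912 to 7848 CPM against 9979 to 10076 in control at 3 h and at 4521 to 4625 against 6028 to 6330 at 24 h. Without Lyz2, the gene that carries the Cre, the summed level of the remaining 7 markers overlapped between genotypes, at 4714 to 4858 CPM in control and 4640 to 4905 in AclyM-KO at 3 h, and at 3633 to 3810 and 3577 to 3765 at 24 h. Single markers among these 7 still differed: Mertk was lower in AclyM-KO cells at 3 h (log2 fold change -0.31, edgeR adjusted p = 4.10e-04) and 24 h (-0.33, adjusted p = 1.49e-04), and at 3 h Fcgr1 (-0.26) and Cd14 (-0.15) were lower and Adgre1 (0.24) higher. The part of these markers in the results below was not tested. The 9 neutrophil markers summed to at most 15.3 CPM in any library, and the defining genes Ly6g and Retnlg were at 0 in every group. Lymphocyte, dendritic cell and fibroblast markers summed to at most 0.262, 2.45 and 1.20 CPM. In bulk RNA, fewer cells of a type and less RNA per cell cannot be told apart. The labels do not say whether replicates came from separate mice, so the p-values measure the spread between these samples, which may be technical.

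On GRCm38 (GENCODE M21) Il1b is at chr2:129364570-129371139 on the minus strand, close to Il1a at chr2:129299610-129309972 on the minus strand, and Il1rn is at chr2:24336853-24351494 on the plus strand. Casp1 (chr9:5298517-5307265) and Casp4 (chr9:5308828-5336783) are plus-strand neighbours, and Il18 lies at chr9:50554827-50581840, also on the plus strand. Il18bp is at chr7:102014885-102018690 and Pycard at chr7:127989708-127993867, both on the minus strand, whereas Nlrp3 (chr11:59541568-59566956) and Gsdmd (chr15:75862327-75867408) are on the plus strand. Overlapping genes limit the reading of Il1a most. The opposite-strand gene Gm14023 had 98.4% to 100% of the count of Il1a in every library, although its exons share only 11.2% of the exon bases of Il1a while its whole span covers 92.1% of them. The counts of Il1a and Gm14023 therefore cannot be told apart. The opposite-strand Il1bos held only 0.333% to 2.42% of the Il1b count in the 12 libraries.

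**Figure D1:**
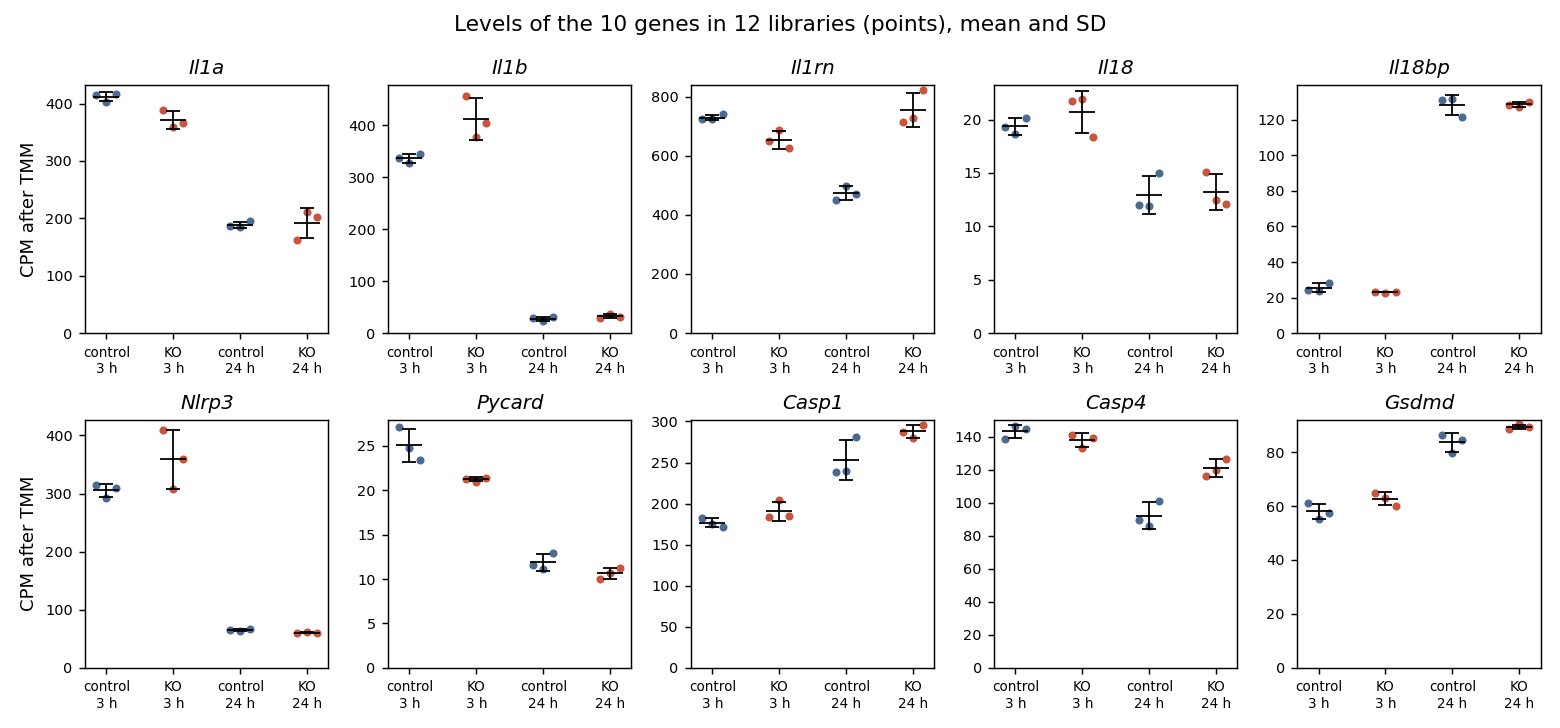
Level of each of the 10 genes in CPM after TMM scaling (vertical axes, linear and starting at 0) in control and AclyM-KO (KO) BMDMs after 3 h and 24 h LPS. Points are the 12 libraries and black marks give mean and SD (n = 3 per group); Il1b and Nlrp3 are high at 3 h, Il18bp is high at 24 h, and Il1rn at 24 h stands at 755 CPM in AclyM-KO against 474 in control.

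At the early time point the RNAs of the ligands and the antagonist of the IL-1 receptor were the most abundant of the 9 ranked. Per kilobase of annotated transcript, control cells at 3 h had 295 ± 3.95 CPM of Il1rn (SD, n = 3), 248 ± 6.58 of Il1b and 209 ± 4.02 of Il1a. Below them followed Casp1 at 118 ± 3.69, Casp4 at 99.7 ± 2.77, Nlrp3 at 76.0 ± 2.77, Gsdmd at 32.4 ± 1.60, Il18 at 22.5 ± 0.915 and Il18bp at 15.9 ± 1.58 CPM per kilobase, and the SDs of neighbours in this order did not overlap. In AclyM-KO cells at 3 h Il1b led with 304 ± 29.7 CPM per kilobase, ahead of Il1rn at 264 ± 12.1, and the SDs of this pair overlapped, as did those of Casp4 (96.1 ± 2.82) and Nlrp3 (89.2 ± 12.7). By 24 h the order in control cells was Il1rn at 192 ± 9.65, Casp1 at 169 ± 16.2, Il1a at 95.5 ± 2.80, Il18bp at 80.5 ± 3.65, Casp4 at 64.2 ± 5.64, Gsdmd at 46.7 ± 1.95, Il1b at 20.2 ± 2.48, Nlrp3 at 16.2 ± 0.383 and Il18 at 15.05 ± 2.05 CPM per kilobase. The SDs overlapped for Il1rn and Casp1 and for Nlrp3 and Il18. In AclyM-KO cells at 24 h Il1rn stood apart at 305 ± 23.4 CPM per kilobase above Casp1 at 192 ± 5.18, and the SDs of Casp4 (84.2 ± 3.75) overlapped those of Il1a above it (97.4 ± 13.4) and of Il18bp below it (80.8 ± 0.921), as did those of Il18 (15.4 ± 1.91) and Nlrp3 (15.1 ± 0.348). Pycard was left out of this order because its annotated transcript runs past the RefSeq end of the gene. Il1a was kept, but its counts could not be told apart from those of Gm14023, so its place in the order is uncertain.

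The first question was how the genes moved between the early and the late LPS response in each genotype. In control cells all 10 genes passed an adjusted p of 0.05 between 24 h and 3 h, where 74.9% of the 11904 genes tested did so. Of these 10, 3 were higher at 24 h (38.9% of all genes were) and 7 were lower (36.0% of all genes), and with a log2 fold change beyond 0.75 added, 5 passed (40.4% of all genes). In AclyM-KO cells all 10 again passed (75.7% of all genes), 4 higher (39.4%) and 6 lower (36.3%), with 5 beyond the fold limit (41.9%). The median log2 change of the 10 genes was -0.63 in control and -0.42 in AclyM-KO cells, beside medians over all genes of 0.04 and 0.04. These medians depend on the scaling: with scaling by total count the median over all genes rose to 0.32 in control and 0.29 in AclyM-KO cells. The genotype comparisons further below use the same control libraries, so they are not independent of these time comparisons.

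**Figure D2:**
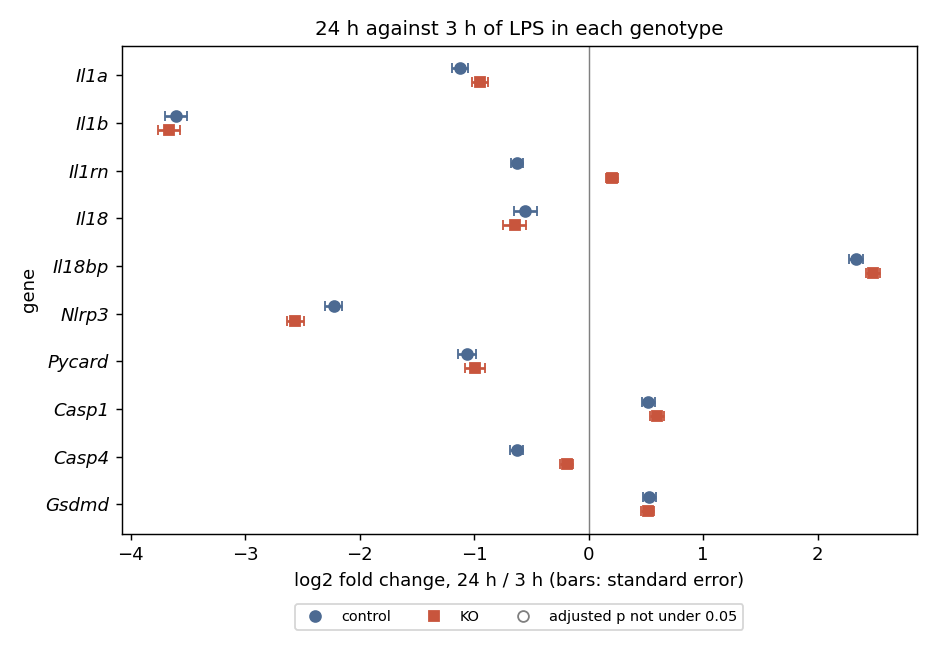
Log2 fold change of 24 h over 3 h LPS (horizontal axis) for each of the 10 genes (vertical axis) in control (circles) and AclyM-KO cells (squares), with standard errors as bars. Il1b lies near -3.6 and Il18bp near 2.4 in both genotypes, whereas Il1rn is at -0.62 in control and at 0.21 in AclyM-KO cells.

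Il1b, the precursor gene of IL-1 beta, had the largest fall of the 10 genes. Control libraries held 338, 327 and 345 CPM at 3 h and 28.03, 23.8 and 30.4 CPM at 24 h. AclyM-KO libraries held 456, 377 and 405 CPM at 3 h and 29.5, 36.2 and 31.7 CPM at 24 h. Every 3 h library was thus above every 24 h library, and the ratio of the means was 12.3 in control and 12.7 in AclyM-KO cells. The fitted log2 change was -3.61 ± 0.10 in control (edgeR adjusted p = 5.20e-15) and -3.67 ± 0.10 in AclyM-KO cells (adjusted p = 4.55e-15). Il1a fell less, from 403 to 417 CPM at 3 h to 185 to 195 CPM at 24 h in control and from 359 to 389 to 162 to 212 CPM in AclyM-KO cells. These counts of Il1a could not be told apart from those of Gm14023. The log2 change of Il1a was -1.13 ± 0.07 in control (adjusted p = 2.53e-12) and -0.95 ± 0.07 in AclyM-KO cells (adjusted p = 4.83e-11).

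Nlrp3, the sensor, followed Il1b. Its 3 h libraries held 314, 293 and 310 CPM in control and 409, 307 and 360 CPM in AclyM-KO cells. At 24 h the values were 65.8, 63.5 and 66.4 CPM in control and 59.9, 62.3 and 60.0 CPM in AclyM-KO cells. The level fell 4.68-fold in control (log2 change -2.23 ± 0.07, edgeR adjusted p = 2.74e-17) and 5.91-fold in AclyM-KO cells (-2.56 ± 0.07, adjusted p = 2.92e-18). Pycard, the adaptor, fell from 23.4 to 27.1 CPM to 11.1 to 12.9 CPM in control (log2 change -1.06 ± 0.08) and from 20.98 to 21.4 to 10.1 to 11.3 CPM in AclyM-KO cells (-0.99 ± 0.09). Across the 12 libraries the log2 levels of Il1b and Nlrp3 had a Pearson correlation of 0.995, a value set largely by the time difference that all genes here share.

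Il18bp, Casp1 and Gsdmd went the other way and were higher at 24 h. Il18bp, the soluble IL-18 trap, rose from 24.4, 23.5 and 28.3 CPM to 132, 132 and 122 CPM in control, and from 23.1, 22.8 and 23.1 CPM to 129, 127 and 130 CPM in AclyM-KO cells. The rise was 5.05-fold in control (log2 change 2.34 ± 0.06, edgeR adjusted p = 1.47e-24) and 5.59-fold in AclyM-KO cells (2.48 ± 0.06, adjusted p = 4.88e-25). Il18 itself fell from 18.6 to 20.2 CPM to 11.9 to 14.97 CPM in control (log2 change -0.55 ± 0.10) and from 18.4 to 21.9 to 12.04 to 15.1 CPM in AclyM-KO cells (-0.65 ± 0.10). Thus the RNA of the ligand fell and that of its binding protein rose in both genotypes. Casp1, which encodes the protease that cleaves IL-1 beta and IL-18, rose from 172 to 183 CPM to 239 to 281 CPM in control (log2 change 0.52 ± 0.06) and from 183 to 204 to 280 to 296 CPM in AclyM-KO cells (0.60 ± 0.06). Gsdmd, the pore-forming effector, rose from 55.3 to 61.0 CPM to 79.7 to 86.5 CPM in control (0.53 ± 0.06) and from 60.1 to 65.0 to 88.7 to 90.3 CPM in AclyM-KO cells (0.51 ± 0.06). These 8 time effects passed an adjusted p of 0.05 in every fit that left out 1 of the 12 libraries.

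The next question was whether loss of Acly changed these genes, and the clearest difference was in the antagonist Il1rn after 24 h. At 24 h Il1rn stood at 451, 499 and 472 CPM in the control libraries and at 715, 729 and 821 CPM in the AclyM-KO libraries. The lowest AclyM-KO library was above the highest control library, and the means of 755 ± 57.9 and 474 ± 23.9 CPM (SD, n = 3 each) had a ratio of 1.59. The log2 fold change was 0.67 ± 0.05 (edgeR adjusted p = 1.79e-10), and it stayed between 0.605 and 0.71 when each of the 12 libraries was left out in turn. At 3 h the direction was opposite. Il1rn stood at 724, 724 and 741 CPM in control and at 649, 687 and 627 CPM in AclyM-KO cells at 3 h. Here all AclyM-KO libraries lay below all control libraries, with a log2 fold change of -0.16 ± 0.05 (adjusted p = 0.0401). This 3 h call was lost in 5 of 12 leave-one-out fits (adjusted p from 0.0626 to 0.192) and passed in only 3 of 8 other alternatives, with an adjusted p of 0.0746 by DESeq2 and 0.155 with all 13 libraries. The test of the difference between the time points gave 0.83 ± 0.07 (adjusted p = 2.81e-09). Seen along time, Il1rn fell in control cells (log2 change -0.62 ± 0.05, adjusted p = 5.45e-12) and rose slightly in AclyM-KO cells (0.21 ± 0.05, adjusted p = 7.95e-04). The 3 RefSeq transcripts of Il1rn held nearly the same counts (totals of 198581, 198582 and 198635 over the 13 libraries), so secreted and intracellular forms of the antagonist were not told apart.

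Casp4, which encodes the LPS-binding caspase-11, was the other gene with a 24 h difference that held in every leave-one-out fit. Its 24 h levels were 89.5, 85.8 and 101 CPM in control and 116, 120 and 127 CPM in AclyM-KO cells. The groups did not overlap, the ratio of the means was 1.31, and the log2 fold change was 0.39 ± 0.06 (edgeR adjusted p = 1.38e-05, range 0.337 to 0.462 over the 12 leave-one-out fits). At 3 h the levels were 139, 146 and 145 CPM in control and 141, 133 and 139 CPM in AclyM-KO cells. These 3 h groups overlapped (log2 fold change -0.05 ± 0.06, adjusted p = 0.591). The genotype effect on Casp4 differed between 24 h and 3 h by 0.44 ± 0.08 (adjusted p = 4.35e-04). Along time Casp4 fell in control cells (-0.63 ± 0.06, adjusted p = 2.29e-11) and fell less in AclyM-KO cells (-0.19 ± 0.06, adjusted p = 0.00343). With scaling by total count the AclyM-KO change was 0.055 and did not pass (adjusted p = 0.37). Over the 12 libraries the log2 levels of Il1rn and Casp4 had a Pearson correlation of 0.799, as a description over libraries that share genotype and time groups, beside 0.408 for Il1rn and Il1b.

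**Figure D3:**
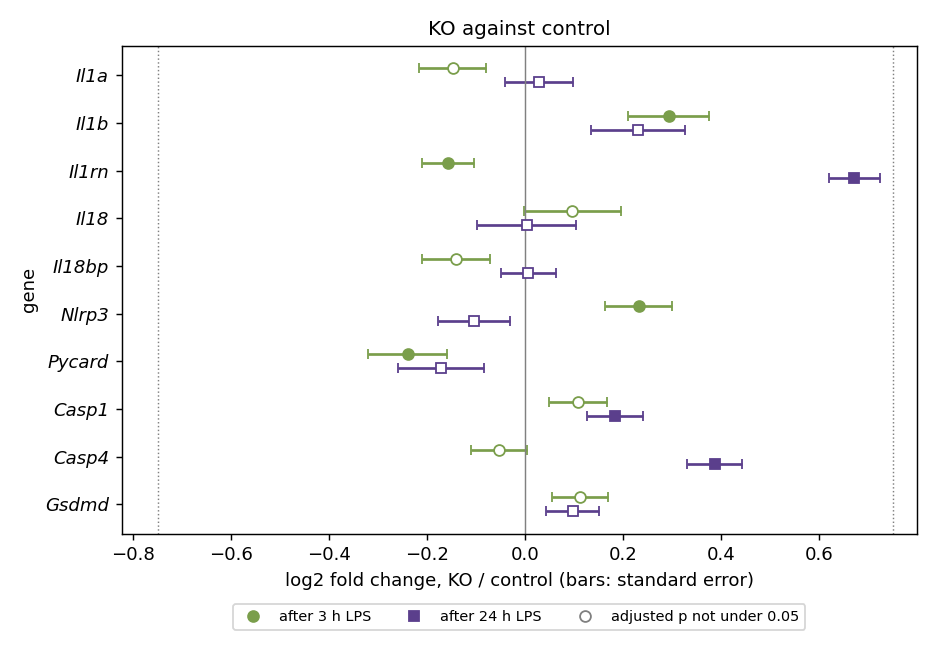
Log2 fold change of AclyM-KO (KO) over control (horizontal axis) for each of the 10 genes (vertical axis) after 3 h (circles) and 24 h LPS (squares), with standard errors as bars; filled symbols have an adjusted p under 0.05 and dotted lines mark 0.75 in either direction. Il1rn at 0.67 and Casp4 at 0.39 stand out at 24 h, and no gene reaches 0.75.

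The upstream windows of these genes are shown because Il1rn and Casp4 carry the genotype difference. Nlrp3 and Il1b had the largest falls with time among the 10 genes. Each is the 250 bases before a RefSeq transcript start (GRCm38.p6), written 5′ to 3′ on the strand of the gene. RefSeq windows were at hand for 9 of the 10 genes. Capitals mark matches, on either strand, to the NF-kB site by its kB consensus or to the AP-1 site TGANTCA. Also searched for were the interferon-stimulated response element core (GAAA, 2 bases of any kind, GAAA), the C/EBP site TTGCNNAA and the GAS element TTCNNNGAA. The Casp4 window is chr9:5308599-5308848, the Il1rn window chr2:24336610-24336859, the Nlrp3 window chr11:59541319-59541568 and the Il1b window chr2:129371140-129371389.
Casp4: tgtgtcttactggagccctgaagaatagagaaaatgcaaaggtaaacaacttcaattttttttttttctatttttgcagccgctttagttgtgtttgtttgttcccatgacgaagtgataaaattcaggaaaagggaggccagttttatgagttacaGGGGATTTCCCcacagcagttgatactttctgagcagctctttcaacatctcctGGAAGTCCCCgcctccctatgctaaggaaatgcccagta
Il1rn: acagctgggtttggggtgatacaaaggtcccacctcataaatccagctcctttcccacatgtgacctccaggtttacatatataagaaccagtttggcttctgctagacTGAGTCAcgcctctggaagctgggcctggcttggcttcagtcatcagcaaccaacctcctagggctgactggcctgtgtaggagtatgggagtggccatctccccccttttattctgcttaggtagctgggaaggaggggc
Nlrp3: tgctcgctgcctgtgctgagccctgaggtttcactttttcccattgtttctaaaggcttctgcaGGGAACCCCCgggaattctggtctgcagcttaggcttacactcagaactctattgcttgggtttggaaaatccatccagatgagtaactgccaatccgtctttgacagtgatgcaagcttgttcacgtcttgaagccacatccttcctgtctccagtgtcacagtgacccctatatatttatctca
Il1b: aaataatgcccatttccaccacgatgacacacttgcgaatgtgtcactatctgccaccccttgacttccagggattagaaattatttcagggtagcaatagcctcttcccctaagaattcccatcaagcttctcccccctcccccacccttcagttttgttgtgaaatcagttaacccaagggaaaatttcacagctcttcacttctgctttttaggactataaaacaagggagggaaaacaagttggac

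In Casp4 the kB consensus matched in the stretch 93 to 83 bases before the start, where overlapping matches fell on both strands, and again 39 to 30 bases before it. In Il1rn the AP-1 site matched 141 to 135 bases before the start of the printed window's transcript. The Il1rn windows before later starts, at chr2:24345041-24345290 and chr2:24345121-24345370, held no match to these 5 motifs. The counts did not show which start was in use. The Nlrp3 window printed belongs to an upstream start, and its kB match lay 186 to 177 bases before that start, on both strands. The Nlrp3 window nearest to the counted transcript held no match to these 5 motifs, nor did the Il1b window. Of the nearest windows of the 9 genes, 1 held the kB consensus (7.28% of 32536 windows of the same length did), 2 held the AP-1 site (6.73%), the other being that of Il1a, and 2 held the C/EBP site (9.57%), those of Il18bp and Pycard. None held the interferon-stimulated response element core (2.98%) or the GAS element (7.04%). A match of letters is a description of the window, and binding was not measured here.

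Of the remaining members at 24 h, Casp1 passed the test with a small difference. It stood at 239, 240 and 281 CPM in control and at 287, 280 and 296 CPM in AclyM-KO libraries at 24 h. The groups overlapped through control replicate 4, the most deeply sequenced library, and the log2 fold change was 0.18 ± 0.06 (edgeR adjusted p = 0.0302). The Casp1 call was lost, with adjusted p from 0.0502 to 0.175, when any AclyM-KO 24 h library, control 24 h replicate 2 or 3, or control 3 h replicate 1 or 2 was left out, and in the fit of all 13 libraries (adjusted p = 0.104). Thus 3 of the 10 genes, Il1rn, Casp4 and Casp1, passed at 24 h, where 13.9% of all genes did. All 3 were higher in AclyM-KO cells (8.32% of all genes), none was lower (5.57% of all genes), and none passed with the fold limit of 0.75 (1.38% of all genes). The groups did not overlap for 4 of the 10 genes (33.1% of all genes), namely Il1rn, Casp4 and Gsdmd above and Nlrp3 below control. The median log2 fold change of the 10 genes was 0.06, beside 0.01 over all genes.

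The cytokine ligands gave no call at 24 h. Il1b had a log2 fold change of 0.23 ± 0.10 (adjusted p = 0.133) with overlapping groups, and without the filter on low counts its adjusted p was 0.0174. Il1a was at 0.03 ± 0.07 (adjusted p = 0.838), and its AclyM-KO libraries ranged from 162 to 212 CPM around control libraries of 185 to 195. Il18 was at 0.003 ± 0.10 (adjusted p = 0.990) and Il18bp at 0.01 ± 0.06 (adjusted p = 0.961). For the remaining inflammasome parts, Nlrp3 was at -0.10 ± 0.07 (adjusted p = 0.394), Pycard at -0.17 ± 0.09 (adjusted p = 0.204) and Gsdmd at 0.10 ± 0.05 (adjusted p = 0.258). These standard errors set how small a difference could have been seen.

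At 3 h the genotype differences past the test went in both directions. Il1b was higher in AclyM-KO cells (means 413 ± 40.3 and 337 ± 8.92 CPM, SD, n = 3 each), with every AclyM-KO library above every control library and a log2 fold change of 0.29 ± 0.08 (edgeR adjusted p = 0.0270). Nlrp3 was higher as well (359 ± 50.9 against 306 ± 11.2 CPM), but AclyM-KO replicate 2, at 307 CPM, lay inside the control range, and the log2 fold change was 0.23 ± 0.07 (adjusted p = 0.0266). Il1rn was lower, as given above, and so was Pycard (21.2 ± 0.232 against 25.1 ± 1.86 CPM), whose AclyM-KO libraries all lay below control with a log2 fold change of -0.24 ± 0.08 (adjusted p = 0.0400). The genes of the cytokine and its sensor were thus higher and those of the antagonist and the adaptor lower. In all, 4 of the 10 genes passed at 3 h, where 15.4% of all genes did, 2 of them higher (8.50% of all genes) and 2 lower (6.91% of all genes), and none passed with the fold limit (2.01% of all genes). The groups did not overlap for 6 of the 10 genes (30.1% of all genes), Il1b and Casp1 above control and Il1a, Il1rn, Il18bp and Pycard below it. The median of the 10 log2 fold changes was 0.02, beside -0.01 over all genes.

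None of the 4 calls at 3 h held in every fit. The number of the 10 genes past the test was 0 without AclyM-KO 3 h replicate 1, without AclyM-KO 3 h replicate 3 or without control 3 h replicate 2, and 1 without control 3 h replicate 1 or without control 3 h replicate 3. Il1b then ranged from 0.217 to 0.358, with 7 of 12 leave-one-out fits past the test, and its adjusted p was 0.142 with all 13 libraries. Nlrp3 without AclyM-KO 3 h replicate 1, its highest library, was at 0.129. The Pycard call was lost in 5 of 12 leave-one-out fits (adjusted p from 0.0577 to 0.224) and passed in 4 of 8 other alternatives. The other 6 genes did not pass the test at 3 h. Il1a stood at -0.15 ± 0.07 (adjusted p = 0.160), Il18bp at -0.14 ± 0.07 (adjusted p = 0.183), Casp1 at 0.11 ± 0.06 (adjusted p = 0.243), Gsdmd at 0.11 ± 0.06 (adjusted p = 0.204), Il18 at 0.10 ± 0.10 (adjusted p = 0.578) and Casp4 at -0.05 ± 0.06 (adjusted p = 0.591).

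Whether the genotype effect itself changed between 3 h and 24 h was tested as an interaction. It passed for 3 of the 10 genes, where 9.53% of all genes passed: Il1rn and Casp4, given above, and Nlrp3. The Nlrp3 value was -0.34 ± 0.10 (edgeR adjusted p = 0.0385), from 0.23 at 3 h to -0.10 at 24 h. The Nlrp3 call was lost, with adjusted p from 0.0546 to 0.0991, when any 24 h library, AclyM-KO 3 h replicate 3, or control 3 h replicate 2 or 3 was left out. For Il1b the interaction was -0.06 ± 0.13 (adjusted p = 0.825), so a difference between its effects of 0.29 at 3 h and 0.23 at 24 h was not detectable here. The remaining 6 genes lay between -0.09 (Il18) and 0.18 (Il1a).

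Beyond the 10 genes, 44 genes of the same pathways were taken as 4 lists: receptors and signalling, other ligands, other sensors, and regulators and effectors, and 37 of them had enough counts to test. At 3 h 3 of the 37 were higher and 3 lower in AclyM-KO cells, and at 24 h 7 were higher and 3 lower, against the shares of all genes given above. Their median log2 fold change was 0.06 at 3 h and 0.09 at 24 h. The gene with the largest fall at 3 h was Mefv, which encodes the inflammasome sensor pyrin, with 29.9, 26.3 and 27.4 CPM in control and 18.1, 11.5 and 14.9 CPM in AclyM-KO libraries. The groups did not overlap, and the log2 fold change was -0.92 ± 0.12 (edgeR adjusted p = 2.61e-05), beyond the fold limit and past the test in each of the 12 leave-one-out fits. At 24 h Mefv was lower by less (-0.38 ± 0.11, adjusted p = 0.0232), a call lost in 4 of 12 leave-one-out fits (adjusted p from 0.0652 to 0.126), and the interaction of 0.54 ± 0.16 (adjusted p = 0.0417) was lost in 10 of 12 leave-one-out fits. The other 3 h calls, named after their values were seen, were Panx1 (0.41), Txnip (0.33) and Naip2 (0.22) higher, and Nlrc4 (-0.50) and Trim30a (-0.23) lower. Panx1 (0.28, edgeR adjusted p = 0.0110) and Naip2 (0.23, adjusted p = 0.00382) were higher at 24 h as well. Nlrc4 did not pass at 24 h (-0.06, adjusted p = 0.731). Besides Il1f9 and Traf6, given below, the other 24 h calls were also named after their values were seen. Tollip (0.25, adjusted p = 0.00127), P2rx7 (0.23, adjusted p = 0.0268) and Tnfaip3 (0.18, adjusted p = 0.00804) were higher. Lower were Nlrp1a (-0.57, adjusted p = 0.0356) and Irak3 (-0.24, adjusted p = 0.00840).

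**Figure D4:**
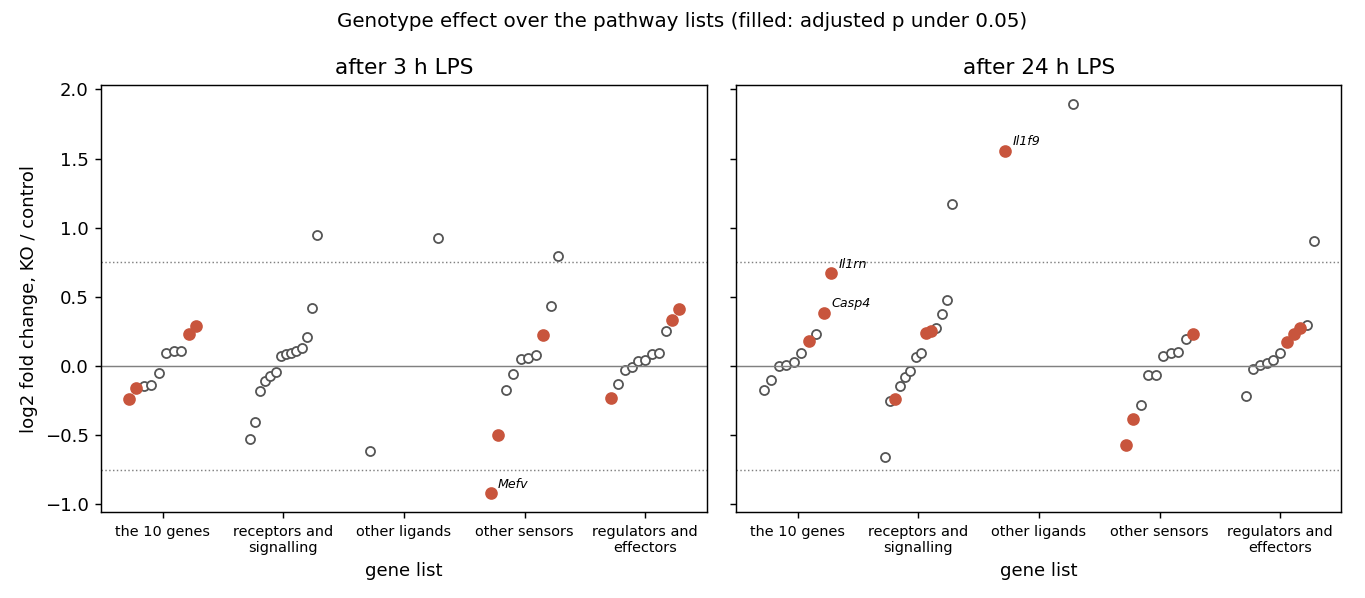
Log2 fold change of AclyM-KO over control (vertical axis) after 3 h and 24 h LPS for the 10 genes and the tested genes of 4 pathway lists (horizontal axis). Each point is a gene, filled where the adjusted p is under 0.05, and dotted lines mark 0.75 in either direction; Mefv lies at -0.92 at 3 h and Il1f9 at 1.56 at 24 h.

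At 24 h the gene past both limits was Il1f9, the older symbol of the gene for the IL-36 gamma ligand. It had low levels of 0.533, 0.682 and 0.733 CPM in control and 2.29, 1.37 and 2.26 CPM in AclyM-KO libraries at 24 h. These came from 13 to 48 counts in control and 34 to 61 counts in AclyM-KO libraries, without overlap in CPM, and the Il1f9 log2 fold change was 1.56 ± 0.27 (edgeR adjusted p = 1.25e-04). It passed in each of the 12 leave-one-out fits, from 1.44 to 1.76. At 3 h it was 0.93 ± 0.39 (adjusted p = 0.113), and the interaction of 0.63 ± 0.49 did not pass (adjusted p = 0.476), so a change of the effect with time was not shown. Traf6, the ubiquitin ligase downstream of the IL-1 receptor, had 32.5, 31.3 and 32.8 CPM in control and 37.5, 36.9 and 39.9 CPM in AclyM-KO libraries at 24 h. Its log2 fold change was 0.24 ± 0.07 at 24 h (adjusted p = 0.0115, lost without AclyM-KO 24 h replicate 3 or control 24 h replicate 3, at 0.0821 at most) and -0.18 ± 0.07 at 3 h (adjusted p = 0.0880). The difference of 0.42 ± 0.10 passed (adjusted p = 0.00457) in each of the 12 leave-one-out fits. Txnip, which encodes the thioredoxin-interacting protein, had a log2 fold change of 0.33 at 3 h (adjusted p = 0.0240) and -0.22 at 24 h (adjusted p = 0.152). Its 24 h groups overlapped. The 24 h value passed without the filter on low counts (adjusted p = 0.00208) and with only the compared libraries (adjusted p = 0.00437). The Txnip interaction was -0.55 ± 0.13 (adjusted p = 0.0165). With the replicate number as a block the Txnip interaction was -0.499 (adjusted p = 0.0796). Trim30a was lower at 3 h (-0.23 ± 0.05, adjusted p = 0.00101) and at 0.01 ± 0.05 at 24 h, and its interaction of 0.23 ± 0.07 (adjusted p = 0.0223) was lost in 7 of 12 leave-one-out fits.

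The 4 lists were also counted along time. Of 2 tested ligands, 1 was lower and 0 higher at 24 h in control cells, and 1 was lower and 1 higher in AclyM-KO cells. The lower ligand was Il33, named after its values were seen. Its log2 change was -9.29 in control and -6.78 in AclyM-KO cells, from low 3 h means of 2.97 and 1.91 CPM. At 24 h Il33 had 0 counts in every control library used, and among AclyM-KO libraries only replicate 1 had a count, of 1. The sizes of both changes are thus set at the floor, and the interaction did not pass (edgeR adjusted p = 0.427). Of 14 tested receptor and signalling genes, 9 were lower and 2 higher at 24 h in control cells, and 10 were lower and 3 higher in AclyM-KO cells. Of 10 tested sensors other than Nlrp3, 5 were higher and 2 lower in control, and 6 higher and 3 lower in AclyM-KO cells. Regulators and effectors numbered 7 lower and 3 higher of 11 in control, and 6 lower and 4 higher in AclyM-KO cells. Over all genes 38.9% were higher and 36.0% lower at 24 h in control, and 39.4% and 36.3% in AclyM-KO cells, and no list was tested as a set.

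The genes whose log2 levels over the 12 libraries were most like those of a member were found by Pearson correlation. For Il1b they were Anxa7 and Slc49a4 (0.999 each) and Ctnna1, Nfkb1 and Ndrg1 (0.998 each). For Nlrp3 they were Septin11, Tmem200b, Myadm and Camkk2 (0.998 each) and Mapkapk2 (0.997). For Casp1 they were Tmem30a (0.989), Psma5 (0.988), C920021L13Rik (0.984), BC028528 and Atp6v0a2 (0.982 each). Since the libraries share time and genotype groups, these values mainly describe the time course.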

How the data were processed

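RNA-seq was available for 13 libraries of LPS-stimulated BMDMs. Libraries were strand-specific. The authors aligned with STAR to the mm10 genome (version 2.5.2b per the submitters' processing notes, which also name CASAVA 1.8.2) and used HOMER to count tags on each RefSeq transcript. The deposited table gives raw counts, whole numbers without normalization, for 35745 transcripts. The strand and isoform settings of the counting are not given in the sources used here. Symbols from RefSeq (GRCm38.p6) and GENCODE M21 were found for 35628 transcripts, and the other 117 held 1.13% of counts. No column was left unused.

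Samples were grouped by the genotype and time in the labels. Levels are CPM after TMM scaling, and levels per kilobase use GENCODE transcript lengths. The tests were edgeR 4.0.16 quasi-likelihood tests (R 4.3.3) with robust dispersion in 1 fit of 12 libraries, after filterByExpr (minimum count 10, minimum total 15), with Benjamini-Hochberg adjustment over 19621 transcripts. Calls were an adjusted p under 0.05, with or without a log2 fold change beyond 0.75, the study's limit. An SE is the log2 fold change divided by the square root of its F statistic. Alternatives were all 13 libraries, DESeq2 1.42.0, its size factors in edgeR, no filter, 1 transcript per gene, only the compared libraries, a replicate block, each library left out, and, added after seeing the data, total count scaling. In the replicate block, control 24 h replicate 4 had a number of its own and so did not inform the group differences. The scripts were tested on simulated data. The members and gene lists were chosen with earlier results of these data known. Named among other pathway genes are those past both limits in a genotype comparison or with an adjusted interaction p under 0.05. Panx1, Naip2, Nlrc4, Il33, Tollip, P2rx7, Tnfaip3, Nlrp1a and Irak3 were named after their values were seen. Genes most like Il1b, Nlrp3 and Casp1 are the top 5 by correlation of log2(CPM + 1).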

Additional observations from a re-analysis of the deposited data

Results flagged for a closer look

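Control 24 h replicate 1 stood apart from the other 3 control 24 h libraries for 5 of the 10 genes and for Acly, by the gap between the extreme library and its nearest neighbour relative to the range of the 4 libraries, a limit that chance passes in about 1 of 20 groups. In the scaling of all 13 libraries its CPM was 202 for Il1b, 134 for Il18, 112 for Nlrp3, 44.8 for Il18bp, 22.4 for Pycard and 22.4 for Acly, from 9, 6, 5, 2, 1 and 1 counts. The library is not used for any level in the report.

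The genotype effect differed between 24 h and 3 h, by the interaction test of edgeR, for Il1rn (0.83), Casp4 (0.44) and Nlrp3 (-0.336) among the 10 genes, for Acly (-0.538), and for Mefv (0.535), Traf6 (0.419), Trim30a (0.235) and Txnip (-0.55) among the other pathway genes. All values are log2, 24 h effect minus 3 h effect.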

How the results depend on the processing

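The 24 h and interaction effects of Il1rn and Casp4 and the time effects of all 10 genes in control cells kept direction and call in every alternative run. The number of the 10 genes past the test at 3 h was 2 with all 13 libraries, 2 with DESeq2, 2 with total count scaling, 1 with only the compared libraries and 0 to 5 over the fits leaving out a library. Total count scaling turned the Casp4 time change in AclyM-KO cells to 0.055. Values with no call near 0 changed sign. At 24 h Il18 was -0.012 with all 13 libraries, -0.017 with total count scaling, -0.025 with no filter, -0.004 with 1 transcript per gene, -0.012 with only the compared libraries and -0.104 to 0.147 leaving out a library. Il18bp was -0.015 with total count scaling, -0.017 with no filter, -0.026 with the replicate block, -0.005 with only the compared libraries and -0.034 to 0.026 leaving out a library. Trim30a was -0.016, -0.019, -0.001 and -0.007 with total count scaling, no filter, 1 transcript per gene and only the compared libraries, and -0.01 to 0.032 leaving out a library. Leaving out a library gave -0.047 to 0.137 for Il1a at 24 h and, for interactions, -0.148 to 0.031 for Il1b, -0.199 to 0.052 for Il18, -0.004 to 0.148 for Pycard and -0.069 to 0.008 for Gsdmd. The cause of these changes was not tested.

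Deviations of same-numbered libraries from their group means correlated between -0.028 and 0.066, so no pairing by replicate number was seen. Libraries with different numbers were not compared, so any other pairing was not tested. In the replicate block, control 24 h replicate 4 shared its number with no other library, so it did not inform the group differences. With this block the interactions of Il1b and Il18 were 0.023 and 0.007. The counts of the 10 genes past the test stayed at 4 (3 h), 3 (24 h) and 3 (interaction). Genes past the test at 24 h numbered 1033 in place of 1653, a drop that includes the loss of that library. That number was 1059 without AclyM-KO 24 h replicate 1, and at 3 h it went from 1835 to 1207 without control 3 h replicate 3.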
